A study of Mus musculus with 5 samples.

Results

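The genes described here are 10 members of the circadian clock, namely Dbp, Tef, Per1, Per2, Per3, Nr1d1, Nr1d2, Arntl, Clock and Cry1, out of 31053 genes counted in each library. They were taken by gene symbol and read in 5 droplet libraries of liver cells from C57BL/6J mice, made with the 10x v3 kit, with 1 library per group. The groups were untreated mice at postnatal day 14 (P14), an adult control library, and adults 24, 48 and 96 h past partial hepatectomy (PHx), in which surgeons take out most of the liver, done at 8 weeks of age. Cells were released by perfusion and passed through a dead-cell removal kit. For the adult control the labels disagree, since a protocol text counts it with the operated mice while its title, source and age name it a control, and it is treated here as the control.

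The hour of the day at which each liver was taken is not given, nor are the sex and the number of mice. With 1 library per group, group, animal and hour of sampling cannot be told apart, and no difference below has a replicate check. A lane code in the sample descriptions reads 2 for the control library and 1 for each of the remaining 4, so comparisons with the control cross this code and those among the other libraries do not. Intervals in brackets are 95% exact intervals that cover counting error only. The members were chosen by their hepatocyte levels in these libraries, so those levels are a description.

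The mammalian clock is a feedback loop that runs in nearly every cell. ARNTL (also called BMAL1) and CLOCK, or its relative NPAS2, bind as a pair to E-box sequences and activate the Per, Cry, Nr1d and Dbp genes. PER and CRY proteins then repress ARNTL and CLOCK, while NR1D1 and NR1D2 (REV-ERB alpha and beta) repress Arntl through sites that ROR proteins otherwise use to activate it. DBP, TEF and HLF are output transcription factors that bind D-box sequences, where NFIL3 competes as a repressor. In liver the transcripts of Dbp, Tef, Per3, Nr1d1 and Nr1d2 are high in a part of the day when Arntl, Npas2 and Cry1 are low, and Clock cycles little.

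RefSeq promoter windows on build GRCm38.p6, each reaching from 250 bases before to 50 bases after a transcription start, were found for 9 of the 10 members, 14 windows in all. Both strands were searched for the E-box CACGTG, the related CACGTT, the D-box letters TTATGTAA and TTACGTAA, and the REV-ERB and ROR response element (RORE) in 2 forms, one with the half-site AGGTCA and one whose half-site begins with G instead. CACGTG reads the same on both strands, and no overlap between matches of different motifs was seen in the member windows. Of all 32851 windows in the table, 7.15% held CACGTG, 4.68% CACGTT, 0.938% TTATGTAA, 0.119% TTACGTAA, 0.7% the first RORE form and 0.913% the second. Tef, Per1 and Cry1 held CACGTG, Nr1d1 and Cry1 held CACGTT, Per3 held TTATGTAA at 2 places and Arntl held the first RORE form. The windows of Dbp, Nr1d2 and Clock held none of these letters.

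The E-box stretches of Tef and Per1 and a stretch for CACGTT, the D-box and the RORE are shown so that both arms of the loop can be read in the DNA. Matches are in capitals, and positions count from the first transcribed base. Each of the 2 Tef windows held an E-box. In the one shown (chr15:81802423-81802672, plus strand) it lies at −127 to −122, and in the other at −138 to −133. Of the 2 Per1 windows only the one shown (chr11:69098699-69098948, plus strand) held the E-box, at −166 to −161. The D-box letters of Per3 (chr4:151044666-151044915, minus strand) lie at −205 to −198 and −158 to −151. Nr1d1 (chr11:98775378-98775627, minus strand) has CACGTT on the opposite strand at −28 to −23. Of the 2 Arntl windows only the one shown in part (chr7:113207528-113207557, plus strand) held the RORE letters, at 28 to 37.
Tef: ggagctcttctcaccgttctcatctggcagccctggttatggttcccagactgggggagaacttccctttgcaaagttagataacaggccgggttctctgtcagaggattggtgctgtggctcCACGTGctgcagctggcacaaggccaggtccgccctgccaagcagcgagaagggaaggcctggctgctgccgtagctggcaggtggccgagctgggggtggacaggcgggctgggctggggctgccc
Per1: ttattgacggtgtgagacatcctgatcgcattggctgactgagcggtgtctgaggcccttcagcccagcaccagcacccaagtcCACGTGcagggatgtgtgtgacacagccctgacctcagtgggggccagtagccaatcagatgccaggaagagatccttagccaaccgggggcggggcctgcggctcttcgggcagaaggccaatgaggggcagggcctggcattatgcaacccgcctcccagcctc
Per3: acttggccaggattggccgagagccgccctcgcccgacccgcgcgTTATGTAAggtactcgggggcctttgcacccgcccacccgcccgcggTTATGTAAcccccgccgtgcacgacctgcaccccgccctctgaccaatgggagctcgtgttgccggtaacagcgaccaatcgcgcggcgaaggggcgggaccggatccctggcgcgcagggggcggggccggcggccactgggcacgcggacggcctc
Nr1d1: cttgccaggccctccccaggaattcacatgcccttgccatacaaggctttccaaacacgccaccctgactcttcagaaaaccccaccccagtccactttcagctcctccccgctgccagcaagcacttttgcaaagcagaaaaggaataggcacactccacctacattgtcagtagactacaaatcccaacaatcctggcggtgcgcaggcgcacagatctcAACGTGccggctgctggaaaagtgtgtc
Arntl: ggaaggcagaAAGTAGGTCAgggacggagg
A match of letters is not a measured binding site.

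Hepatocyte barcodes had at least 5000 unique molecular identifiers (UMIs), 10% to 30% mitochondrial UMIs and at least 1% of UMIs from Alb, Apoa1 and Ttr. This gave 2106 barcodes at P14, 925 in the control and 1170, 719 and 771 at 24, 48 and 96 h, with median depths from 18527 to 38922.5 UMIs. The summed counts per 1000000 UMIs (CPM, without the 13 mitochondrial genes) of 5 further hepatocyte markers (Cps1, Fabp1, Apoc3, Serpina1c and Hnf4a) lay between 13937 and 25970, and each of the 5 was detected in each library. Neutrophil markers summed to 26.9 CPM at P14, 10.4 in the control and 100.2, 187 and 20.8 at 24, 48 and 96 h in these barcodes, and all 3 were detected in each library. Of 9672 barcode sequences chosen in the cell sets, 11 were chosen in more than 1 library.

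Dbp, the D-box activator with the widest daily swing of the output genes, showed the widest range among the 10. Its hepatocyte level was 13.1 CPM at P14, 152 in the control, and 9.07, 3.22 and 119 at 24, 48 and 96 h, from 846, 2026, 177, 67 and 1595 UMIs. The level was thus high in the control and at 96 h and low in the other 3 libraries, and no 2 of the 5 counting intervals touched. Against the control Dbp was 16.8-fold lower at 24 h (log2 ratio −4.07, −4.30 to −3.85), 47.3-fold lower at 48 h (−5.56, −5.94 to −5.21) and 11.6-fold lower at P14 (−3.54, −3.66 to −3.42). At 96 h it was 1.28-fold lower (−0.36, −0.45 to −0.26).

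The difference in Dbp was also seen cell by cell. After each barcode was thinned to 5000 UMIs, a Dbp UMI was found in 5.41% of P14 hepatocyte barcodes, 43.8% of control barcodes, and 2.91%, 1.53% and 33.2% at 24, 48 and 96 h. Without thinning the shares were 25.2%, 84.0%, 12.9%, 7.93% and 78.9%. Free RNA, measured in empty droplets, held 0.254 Dbp UMIs per droplet in the control against 2.19 UMIs per hepatocyte barcode. At 48 h the same pair of values was 0.0018 and 0.0932.

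Tef, another D-box activator, ordered the libraries as Dbp did, over a narrower range. Its level was 61.2 CPM at P14, 115 in the control, and 29.5, 16.0 and 91.0 at 24, 48 and 96 h. Against the control it was 3.91-fold lower at 24 h (log2 ratio −1.97, −2.11 to −1.83) and 7.23-fold lower at 48 h (−2.85, −3.03 to −2.68), while P14 stayed inside 2-fold (−0.92).

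Nr1d1, the REV-ERB gene that represses Arntl, was at 12.7 CPM at P14, 105.8 in the control, and 47.1, 27.3 and 93.2 at 24, 48 and 96 h. Its lowest library was P14, 8.36-fold below the control (log2 ratio −3.06, −3.19 to −2.94), whereas for Dbp and Tef the lowest was 48 h. Its ratio at 24 h was −1.17 (−1.29 to −1.05) and at 48 h −1.95 (−2.10 to −1.81). Nr1d2, the paralog of Nr1d1, was at 27.1, 100.7, 51.7, 27.8 and 82.5 CPM in the same order of libraries. P14 and 48 h did not differ for Nr1d2 beyond their counting intervals.

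The 3 Per genes, whose proteins repress ARNTL and CLOCK, did not share one pattern. Per3 was at 34.8 CPM at P14, 21.8 in the control, and 3.89, 2.54 and 20.7 at 24, 48 and 96 h. P14 was thus the highest library for Per3, 1.60-fold above the control (log2 ratio 0.68, 0.50 to 0.86), although Dbp and Nr1d1 were low there. The adult part of the Per3 series followed Dbp and Tef, with ratios of −2.48 (−2.87 to −2.11) at 24 h and −3.10 (−3.55 to −2.67) at 48 h.

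Per2 was at 7.06 CPM at P14, 16.1 in the control, and 6.61, 2.64 and 14.8 at 24, 48 and 96 h. It was 2.44-fold lower at 24 h and 6.12-fold lower at 48 h than in the control. Per1, which also responds to acute signals such as glucocorticoids and cAMP, was at 22.0, 10.1, 13.7, 12.0 and 6.85 CPM in the same order. Per1 was the only Per gene that was not lower at 24 h or 48 h than in the control by point value, with ratios of 0.45 (0.14 to 0.76) and 0.25 (−0.05 to 0.57). In barcodes with under 10% mitochondrial UMIs the Per1 ratios were −1.39 (−3.10 to 0.42) and −1.12 (−2.92 to 0.72), from 8 and 7 UMIs against 6 in the control. The sign was thus negative there, but the intervals held 0 and the medians of all genes (−0.73 and −0.65), so no direction is shown.

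On the activator side Arntl ran against the output genes. Its level was 15.2 CPM at P14, 4.28 in the control, and 12.2, 17.5 and 4.84 at 24, 48 and 96 h, from 982, 57, 239, 365 and 65 UMIs. P14, 24 h and 48 h were high and the control and 96 h were low, with no overlap of counting intervals between these sets. Relative to the control Arntl was 2.86-fold higher at 24 h (log2 ratio 1.52, 1.09 to 1.96), 4.09-fold higher at 48 h (2.03, 1.63 to 2.46) and 3.55-fold higher at P14 (1.83, 1.44 to 2.24). Clock was at 28.0, 45.7, 55.7, 54.8 and 49.7 CPM, and Cry1, a late-phase repressor, was at 14.1, 11.3, 13.6, 8.45 and 7.96 CPM. Neither passed 2-fold in any comparison with the control in these barcodes, but both did at lower mitochondrial shares, as given below.

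**Figure D1:**
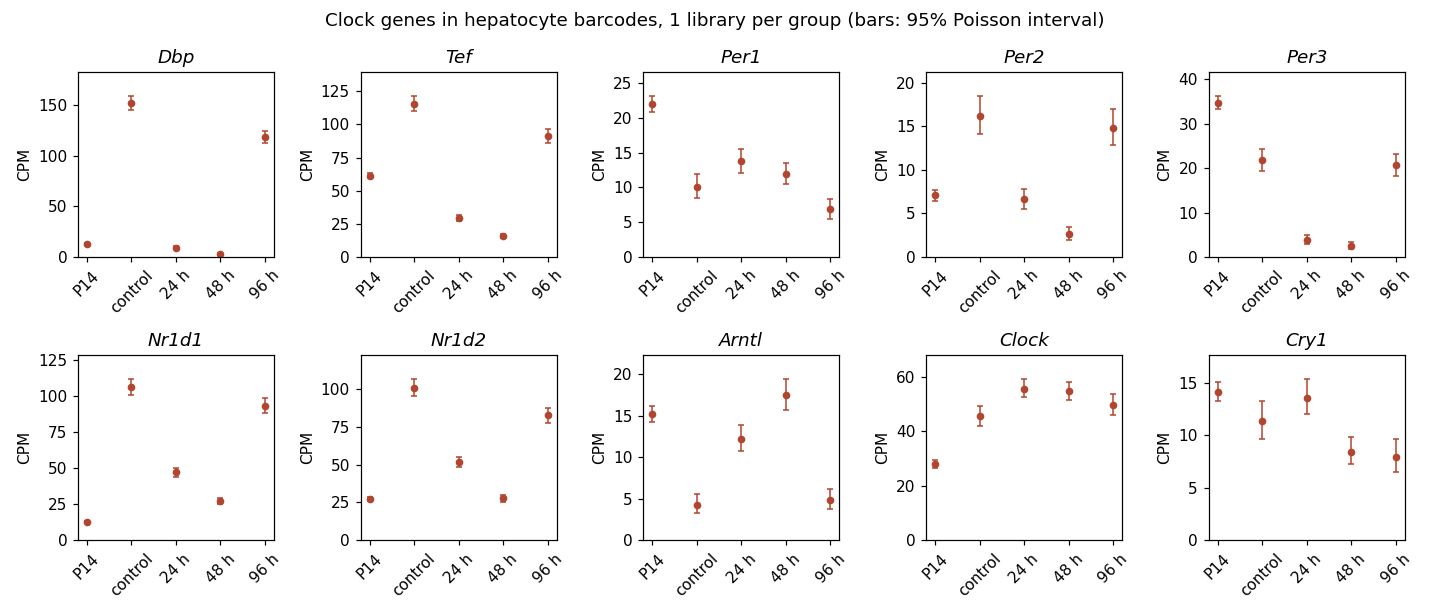
Level of each of the 10 clock genes in hepatocyte barcodes, in CPM on a linear axis from 0, for P14, the adult control and 24, 48 and 96 h after PHx. Points are the summed counts of 1 library and bars are 95% Poisson intervals; Dbp falls from 152 CPM in the control to 3.22 at 48 h and stands at 119 at 96 h, while Arntl has its highest point, 17.5 CPM, at 48 h.

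Counted over the members, with a 2-fold threshold and at least 5 CPM in either library, 5 of 10 were lower and 1 higher at 24 h than in the control. Among all 9028 genes so compared 8.35% were lower and 9.59% higher. At 48 h 6 were lower and 1 higher of 10, where 8.78% and 9.33% of all genes were. P14 had 4 lower and 2 higher of 10, against 15.3% and 8.77% of all genes. At 96 h 0 of 9 passed 2-fold in either direction, where 2.31% of all genes were lower and 4.84% higher. Since these contrasts entered the choice of the members, nothing is read from the distance to the background. The median log2 ratio of the tested members was −1.06, −1.90, −0.29 and −0.81 at 24 h, 48 h, 96 h and P14, beside −0.00089, −0.085, 0.043 and −0.28 over all genes.

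Among the operated libraries, which carry the same code, 96 h stood apart from the earlier times. At 96 h 6 of 10 members were higher and 1 lower than at 48 h (5.23% and 4.66% of all genes), with Dbp 5.21 log2 units higher (4.85 to 5.58) and Arntl at −1.86 (−2.26 to −1.47). Against 24 h, 4 of 10 were higher and 2 lower at 96 h (5.94% and 5.34% of all genes). Between 48 h and 24 h, 2 of 9 were lower, Dbp and Per2, and 0 higher (2.21% and 2.22% of all genes).

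The mitochondrial limit of the barcodes bears on these values. Barcodes with under 10% mitochondrial UMIs and otherwise the same limits numbered 124 at P14, 150 in the control, and 328, 176 and 684 at 24, 48 and 96 h. No leukocyte marker limit was set for them, so they can include barcodes of the leukocyte set described below. Their cell type was not checked by further markers. In them the Dbp ratio was −4.94, −5.04 and −0.71 at 24, 48 and 96 h, and 5 of the 8 members compared (Tef, Per1, Per3, Nr1d2 and Cry1) were at least 2-fold lower at 96 h. The ratios of all genes were also shifted in these barcodes, with medians of −0.73, −0.65 and −0.48 at 24, 48 and 96 h and 40.4%, 36.9% and 25.6% of genes at least 2-fold lower, so ratios there are to be read against these medians. Arntl rested on 5 UMIs in the control, with a 24 h ratio of −0.22 (−1.75 to 1.60) and a P14 ratio of 0.43 (−1.44 to 2.43). The 48 h interval of −0.25 to 2.87 also held 0, so the Arntl difference from the control was not resolved at this depth. Read against the median of all genes at 48 h (−0.65), that interval lay above it. Cry1 was lower than in the control at all 3 times after PHx, at −1.44 (−2.53 to −0.32), −1.98 (−3.37 to −0.67) and −1.66 (−2.61 to −0.63). These ratios rest on 18, 9 and 31 UMIs against 14 in the control. The 24 h interval held the median of all genes, and those at 48 h and 96 h lay below theirs, at 48 h narrowly. Clock was lower at P14, at −2.06 (−3.50 to −0.83), from 7 UMIs against 28, and at −0.59, −0.45 and −0.61 at 24, 48 and 96 h, near the medians of all genes and with intervals that held 0.

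The phase relation inside each library was summarised as the log2 ratio of the summed UMIs of Dbp, Tef, Per3, Nr1d1 and Nr1d2 to those of Arntl, Clock, Npas2 and Cry1. The sums are not weighted, and Clock, which cycles little, gave much of the second sum. In hepatocytes it gave 608 of 820 UMIs in the control, 1142 of 1742 at 48 h and 1809 of 3755 at P14. The hepatocyte ratio of the 2 sums was 1.36 (1.30 to 1.41) at P14 and 3.01 (2.90 to 3.12) in the control. After PHx it was 0.77 at 24 h (0.68 to 0.86), −0.12 at 48 h (interval −0.22 to −0.02) and 2.68 at 96 h (interval 2.58 to 2.79). The control and 96 h were thus close to each other and far from 24 h and 48 h. The single pair Nr1d1 over Arntl gave −0.27, 4.63, 1.94, 0.64 and 4.27 in the order P14, control, 24, 48 and 96 h. By this pair P14 was the lowest library, and by the full arms 48 h was.

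**Figure D2:**
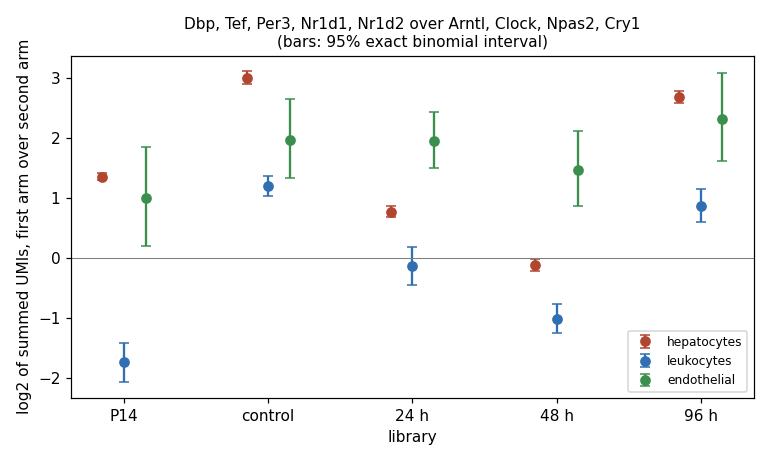
Log2 ratio of the summed UMIs of Dbp, Tef, Per3, Nr1d1 and Nr1d2 over those of Arntl, Clock, Npas2 and Cry1 in hepatocyte, leukocyte and endothelial barcodes of each library, with 95% exact binomial intervals. In hepatocytes the ratio runs from 3.01 in the control to −0.12 at 48 h and 2.68 at 96 h, while the 5 endothelial points lie between 1.00 and 2.32.

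The other genes of the core loop were read from a list of 8. Of the 7 that could be compared, 2 were at least 2-fold lower at 24 h (8.35% of all genes), 3 at 48 h (8.78%), 2 at P14 (15.3%) and 0 at 96 h (2.31%). None, 0 of 7, were higher in any of these comparisons, where 9.59%, 9.33%, 8.77% and 4.84% of all genes were. The same shares of all genes stand behind the counts of each list that follows. The list medians were −0.61, −0.88, −0.42 and −0.25 at 24 h, 48 h, P14 and 96 h.

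Among repressors, Bhlhe41 (DEC2, which represses at E-boxes) was at 19.9 CPM in the control and 2.41, 0.624 and 10.3 at 24, 48 and 96 h, and had 2 UMIs in all P14 hepatocytes against 265 in the control. Ciart, a repressor of ARNTL and CLOCK also called Chrono, was at 1.07 CPM at P14, 12.2 in the control, and 8.04, 2.40 and 12.9 at 24, 48 and 96 h. Cry2 was at 28.2, 37.3, 12.4, 10.2 and 20.9 CPM in the same order, and Bhlhe40 (DEC1) at 87.3, 117, 110.9, 63.9 and 141. Bhlhe41, Ciart and Cry2 were thus each lower at 48 h than in the control, while Bhlhe40 did not pass 2-fold.

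Of the genes that act on Arntl or beside it, Rora, an activator of Arntl, was at 104, 150.2, 193, 109.8 and 126 CPM from P14 to 96 h. Npas2, the partner that can replace CLOCK, was low throughout at 0.805, 0.300, 1.18, 2.83 and 0.744 CPM, with its highest level at 48 h (59 UMIs against 4 in the control). Nfil3, the D-box repressor, was at 21.1, 11.9, 16.9, 20.7 and 8.63 CPM, which ordered the libraries nearly as Arntl did. Hlf, a further D-box activator, was at 68.7, 88.2, 56.6, 47.8 and 82.0 CPM, so its highest and lowest libraries differed 1.85-fold where those of Dbp differed 47.3-fold.

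**Figure D3:**
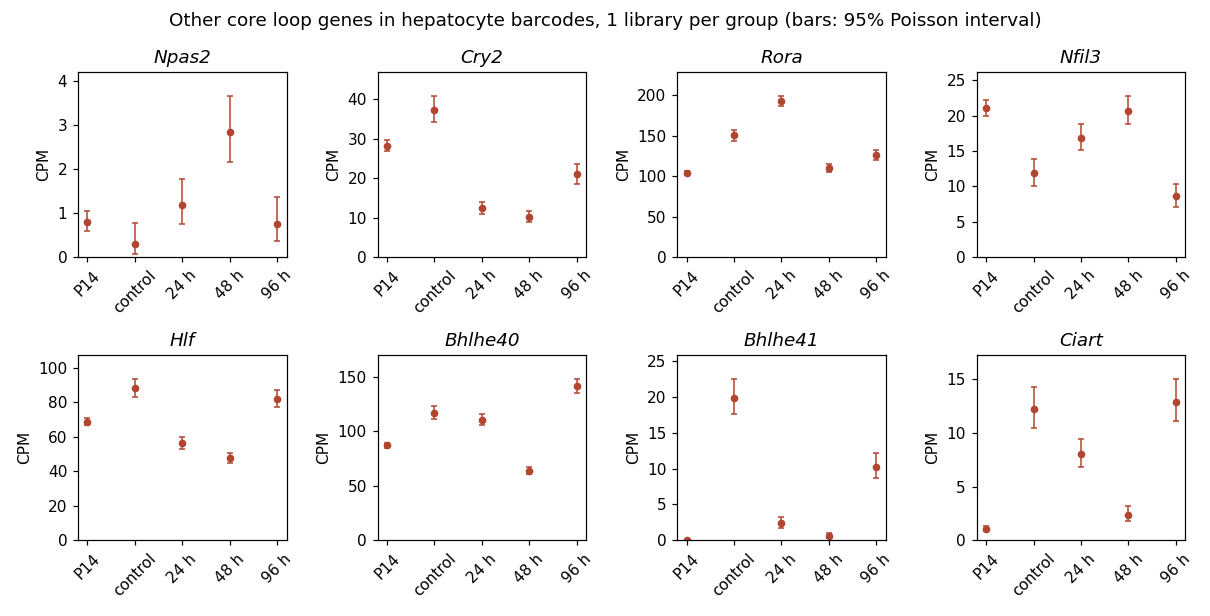
Level of the 8 other core loop genes in hepatocyte barcodes, in CPM on a linear axis from 0, for the 5 libraries, with 95% Poisson intervals. Bhlhe41, Ciart and Cry2 have lower points at 48 h than in the control, and Npas2 and Nfil3 have higher ones.

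Of 12 genes that modify clock proteins (kinases, ubiquitin ligase parts, corepressors and NAD enzymes), 0 passed 2-fold at 24 h, 48 h or 96 h among the 10 or 11 compared. With 2.31% to 9.59% of all genes past 2-fold in a given direction, a count of 0 among so few does not set this list apart. Csnk1e, a casein kinase that marks PER proteins for decay, was at 3.08 CPM in the control and 5.38 at 24 h. At P14 1 was lower and 1 higher of 10, with Gsk3b, a kinase of several clock proteins, at 42.0 CPM against 89.7 in the control. Nampt, the NAD-producing enzyme that the clock drives, was at 115 CPM at P14, 53.9 in the control and 34.8 at 48 h.

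Liver genes known to follow the clock went in both directions. Of 15 compared, 5 were lower and 1 higher at 24 h (8.35% and 9.59% of all genes) and 7 and 2 at 48 h (8.78% and 9.33%). At 96 h 2 were lower and 2 higher (2.31% and 4.84% of all genes), and at P14 3 and 5 (15.3% and 8.77%), so the lower count at P14 lay near the share of all genes. Elovl3, a fatty acid elongase with a strong daily rhythm, was at 254 CPM in the control and 69.2, 53.2 and 50.4 at 24, 48 and 96 h, and had 1 UMI at P14. It was therefore still low at 96 h, where Dbp was near the control. Cyp7a1, the rate-limiting enzyme of bile acid synthesis, was at 22.2 CPM in the control and 39.7, 197 and 171 at 24, 48 and 96 h. Cdkn1a, a cell cycle inhibitor that NR1D1 is known to repress, was at 2.25 CPM in the control, 70.0 at P14, and 106.5, 76.9 and 14.4 at 24, 48 and 96 h.

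Signals that reset the liver clock were read from lists of feeding, fasting, glucocorticoid, temperature and immediate early genes. Of 5 glucocorticoid-induced genes 3 were higher at 24 h (9.59% of all genes) and 1 at 48 h (9.33%), with 0 lower at either time. At 96 h 0 passed 2-fold, and at P14 1 was lower and 2 higher (15.3% and 8.77% of all genes). Fkbp5, a chaperone of the glucocorticoid receptor, was at 75.3 CPM at P14, 18.2 in the control, and 74.3, 30.5 and 15.6 at 24, 48 and 96 h. Sgk1, a kinase, was at 4.21 CPM in the control and 48.9, 76.7 and 8.33 at 24, 48 and 96 h.

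Of 4 feeding genes compared, 1 was lower at 24 h (8.35% of all genes), 1 at 48 h (8.78%), 0 at 96 h (2.31%) and 3 at P14 (15.3%), with 0 higher. Srebf1, the lipogenic transcription factor, was at 77.9 CPM in the control, 32.4 at 24 h and 119 at 96 h, and Scd1, a fatty acid desaturase, was at 20.3 CPM at P14 against 2822 in the control. Of 6 fasting genes 1 was higher at 24 h and at 48 h (9.59% and 9.33% of all genes), and it was Igfbp1, a binding protein of insulin-like growth factors. At 96 h 1 fasting gene was lower (2.31% of all genes) and 0 higher, and at P14 3 were higher (8.77%) and 0 lower. Igfbp1 was at 2075 CPM at P14, 23.6 in the control, and 468, 235 and 42.9 at 24, 48 and 96 h. Angptl4, an inhibitor of lipoprotein lipase, was at 84.0 CPM in the control and 36.9 at 96 h.

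Of 9 heat and cold response genes 3 were lower at 24 h (8.35% of all genes) and 4 each at 48 h, 96 h and P14 (8.78%, 2.31% and 15.3%). The 1 higher gene of 9 in each of these comparisons stands against 9.59%, 9.33%, 4.84% and 8.77% of all genes, so it does not set the list apart. Hsph1, a chaperone, was at 134 CPM in the control and 63.1, 29.7 and 26.6 at 24, 48 and 96 h, and Hspa1b, an inducible chaperone, at 52.3 and 10.5, 5.28 and 19.5. Hspb1, a small heat shock protein, was at 19.6 CPM in the control and between 3.17 and 4.54 in the operated libraries. The immediate early genes gave 1 lower and 1 higher of 8 at 24 h (8.35% and 9.59% of all genes), 1 and 3 of 8 at 48 h (8.78% and 9.33%), 0 and 4 of 9 at 96 h (2.31% and 4.84%), and 2 and 1 of 7 at P14 (15.3% and 8.77%). Nr4a1 was at 2.63 CPM in the control and 11.6 at 96 h, Fosb at 1.65 in the control and 5.18 at 48 h, and Junb at 98.0 in the control and 35.6 at P14. The part of any of these signals in the clock gene levels was not tested.

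The genes whose levels over the 5 hepatocyte libraries lay nearest to Dbp, by Euclidean distance of centred log2(CPM + 1) among 6056 genes, were Car3, Phlda1, Sucnr1, Arrdc3 and Clec2h, at distances of 1.63 to 1.94. Car3, a carbonic anhydrase, was at 270 CPM at P14, 2589 in the control, and 194, 282 and 2573 at 24, 48 and 96 h. Nearest to Arntl were Itih3, Skil, AY036118, Pnp and Cda, at distances of 0.36 to 0.59. Skil, a repressor of SMAD signalling, was at 32.8, 10.6, 28.1, 27.6 and 11.8 CPM. The distance weighs the size of the changes, and the order of libraries can differ, since Car3 was lowest at 24 h and Dbp at 48 h. With 5 libraries the likeness is a description only.

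Within libraries, clock gene levels were compared between hepatocytes with and without mitosis transcripts, taken as UMIs of at least 3 different genes against 0 of 18 mitosis genes after thinning to 5000 UMIs. There were 238, 132, 282 and 64 positive barcodes at P14, 24, 48 and 96 h, and 4 in the control, which was left out. Clock was higher in positive barcodes at 24 h (log2 ratio 0.60, 0.36 to 0.83), 48 h (0.53, 0.34 to 0.72) and 96 h (0.62, 0.28 to 0.94), while at P14 the interval held 0 (0.19, −0.02 to 0.40). Nr1d1 was lower in them at 24 h (−0.69, −1.03 to −0.37), 48 h (−0.31, −0.59 to −0.04) and P14 (−0.46, −0.85 to −0.09), but not beyond counting error at 96 h (−0.12, −0.41 to 0.15). Its arm did not move as one, since at 48 h Nr1d2 (0.55, 0.28 to 0.83) and Per3 (1.08, 0.10 to 2.14, from 31 and 13 UMIs) were higher in positive barcodes. At P14 Per3 was lower in positive barcodes (−0.32, −0.54 to −0.11, from 199 and 1763 UMIs). Per1 was higher in them at 48 h (0.63, 0.20 to 1.06) and P14 (0.55, 0.34 to 0.77). Per2 was lower in them at 96 h (−0.99, −2.03 to −0.12, from 11 and 161 UMIs), and Cry1 was higher at P14 (0.60, 0.33 to 0.87). These cells share a library, so the intervals hold counting error only.

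Dbp was lower in positive than in negative barcodes at P14 (−0.58, −0.97 to −0.21) and 96 h (−0.48, −0.76 to −0.21). At 24 h its ratio was −0.67 (−1.53 to 0.09), and at 48 h −0.04 (−0.96 to 0.88), from 23 and 21 UMIs. Mitosis-negative hepatocytes had Dbp at 9.51 CPM at 24 h and 2.55 at 48 h, against 151 in the control, so the low level was also measured outside mitosis-positive cells. Arntl was higher in positive barcodes at P14 (0.61, 0.35 to 0.87) and at 96 h (1.37, 0.33 to 2.31, from 13 and 37 UMIs).

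A second split used the outer terciles of each library on a score of pericentral over periportal genes, a range and not a cell type. From 95 to 366 barcodes per library lay within 0.25 of a limit. In the control Dbp was at 143 CPM in the periportal-leaning and 151 in the pericentral-leaning tercile. The widest member difference was in Dbp at 48 h, at 5.38 CPM (38 UMIs) in the periportal-leaning and 1.30 (9 UMIs) in the pericentral-leaning tercile, a log2 ratio of −2.05 (−3.28 to −0.97). At 96 h Clock was higher in the pericentral-leaning tercile, at 59.1 against 40.5 CPM (0.55, 0.27 to 0.82).

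Leukocyte barcodes had at least 1000 UMIs, at least 500 genes, under 10% mitochondrial UMIs and at least 3 UMIs of Ptprc, Coro1a and Laptm5. They numbered 252 at P14, 976 in the control, and 592, 1166 and 665 at 24, 48 and 96 h. Their makeup differed, with neutrophil markers (S100a8, S100a9 and Retnlg, all 3 detected in each library) at 34497 CPM at P14, 4039 in the control, and 85040, 76304 and 15600 at 24, 48 and 96 h. Hepatocyte RNA was also present, with all 5 hepatocyte markers detected and a sum of 1061, 5079, 2256, 1146 and 6021 CPM in the same order.

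In leukocytes Dbp was at 6.57 CPM at P14, 60.3 in the control, and 8.94, 7.03 and 34.1 at 24, 48 and 96 h, so the control and 96 h were again the high libraries. Free RNA scaled to the hepatocyte markers would supply 73.1% of the control's Dbp UMIs and 75.2% of those at 96 h, against 28.3% at 24 h and 6.11% at 48 h. Subtracting it left 5.42, 21.0, 7.65, 7.08 and 10.2 CPM from P14 to 96 h. The control value of 21.0 (13.4 to 29.2) then stood above those at P14, 24 h and 48 h, and its interval met that at 96 h (3.69 to 17.6). For Nr1d1, at 21.7 CPM in the control and 6.19 and 2.24 at 24 h and 48 h, free RNA would supply 90.0% of the control's UMIs, and the remaining 2.82 CPM had an interval reaching below 0.

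Without subtraction, 4 of the 9 members compared were at least 2-fold lower in leukocytes at 24 h and 2 higher (13.5% and 7.47% of all genes). At 48 h 4 were lower and 1 higher of 8 (12.6% and 5.81%), at P14 4 and 1 of 8 (15% and 13.6%), and at 96 h 0 and 0 of 8 (6.9% and 5.66%). Dbp, Tef, Nr1d1 and Nr1d2 were the 4 lower members at 24 h, 48 h and P14. Nr1d2 at 24 h lay at the threshold (−1.01) and passed it in 3 of 13 alternative settings. After free RNA scaled to the hepatocyte markers was subtracted from all genes, 8 members could be compared at 24 h and 7 in each of the remaining comparisons. The lower members were then Dbp and Arntl (−1.19) at 24 h, Dbp, Nr1d2 and Arntl (−1.03) at 48 h, Dbp at 96 h, and Dbp and Nr1d2 at P14 (10.1%, 4.29%, 3.71% and 9.3% of all genes). The higher members were Per1 (1.86) and Per2 (2.76) at 24 h, Per1 (1.76) at 48 h, 0 at 96 h, and Per1 and Arntl at P14 (8.9%, 6.48%, 7.7% and 16% of all genes). The Per2 ratio is not resolved, since the control's remaining 0.89 CPM had an interval reaching below 0 (−0.55 to 2.96). Tef then stayed inside 2-fold in all 4 comparisons (−0.94 at 24 h and −0.95 at 48 h), Nr1d2 was at −0.0084 at 24 h, and Nr1d1 was no longer at 5 CPM in either library.

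After PHx the point ratios of Arntl and Clock differed in sign between the cell sets. At P14 each went the same way in both, Arntl higher (1.83 in hepatocytes and 1.84 in leukocytes) and Clock lower (−0.70 and −0.94). Of the 196 leukocyte Arntl UMIs at P14, 176 lay in 79 barcodes with B cell precursor genes, described below. The leukocyte Arntl ratio at P14 therefore does not speak for the other leukocytes. The hepatocyte intervals at 96 h held 0 for both genes. Without the neutrophil-range barcodes described below, the leukocyte Clock intervals at 24 h and 48 h also held 0. In barcodes with under 10% mitochondrial UMIs and the other hepatocyte limits, the intervals of both genes held 0 at all 3 times. The 10% limit is the one used for leukocytes, which were not left out of that set. The ratios of all genes were shifted downward there, with a median of −0.65 at 48 h. The Arntl interval at 48 h (−0.25 to 2.87) lay above that median, while every other interval held the median of its time. The direction against the control was thus not resolved there, but Arntl at 48 h lay above the shift of all genes. Arntl in leukocytes was at 56.0 CPM at P14, 15.6 in the control, and 8.25, 9.70 and 9.44 at 24, 48 and 96 h. Its ratio to the control was −0.92 (−1.51 to −0.36) at 24 h and −0.69 (−1.11 to −0.26) at 48 h, where hepatocytes had 1.52 and 2.03. Of the control's 100 leukocyte Arntl UMIs, 17 lay in 1 barcode, so the ratios rest in part on it and their intervals do not cover this. Clock in leukocytes was at 15.1, 29.0, 19.7, 22.0 and 18.4 CPM. Free RNA would supply 2.75% of the control's Arntl UMIs in leukocytes and 29.2% of its Clock UMIs.

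**Figure D4:**
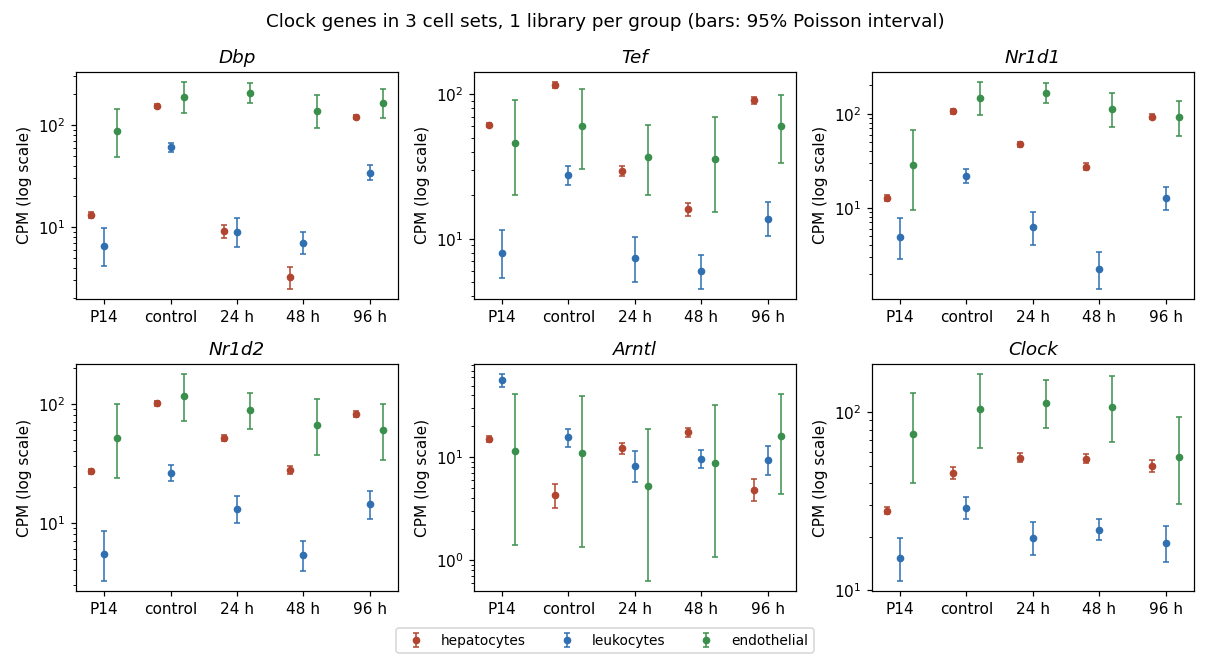
Levels of Dbp, Tef, Nr1d1, Nr1d2, Arntl and Clock in hepatocyte, leukocyte and endothelial barcodes of each library, in CPM on a log axis, with 95% Poisson intervals. At 24 h and 48 h the Dbp points of endothelial barcodes (206 and 138 CPM) lie above those of hepatocytes (9.07 and 3.22) and leukocytes (8.94 and 7.03).

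Splitting the leukocytes by marker genes, a step added after the data were seen, showed where these counts lay. In the T or NK range Dbp was at 11.6, 61.6, 10.6, 11.7 and 38.3 CPM from P14 to 96 h. By the mean of the empty droplets, not scaled to the hepatocyte markers, free RNA would supply 172 of its 276 UMIs in the control and 23.9 of 61 at 96 h. This estimate runs lower than the scaled one used above. For Dbp in all leukocytes it gave 248 UMIs against 282 in the control, and 76.7 against 106 at 96 h. In the neutrophil range it had 2 UMIs at 24 h and 1 UMI at 48 h, from 166 and 171 barcodes, where Per1 had 37 and 58 UMIs (28.2 and 29.1 CPM). Per1 in the T or NK range was at 6.36 CPM at 24 h and 9.66 at 48 h, against 7.14 in the control. Per2 had 20 of its 24 leukocyte UMIs at 24 h in the neutrophil range, and 19 of 33 at 48 h. Leaving the neutrophil range out turned the Per2 ratio at 24 h from 1.05 to −0.98 (−3.02 to 0.65), from 4 against 16 UMIs and below 5 CPM in both libraries, and 0 members were then at least 2-fold higher at that time (6.79% of all genes).

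Arntl at P14 lay in the B range, which held 177 of its 196 leukocyte UMIs at 114 CPM. Within it, 79 barcodes with at least 3 UMIs of the precursor genes Vpreb1, Vpreb3 and Igll1 (parts of the surrogate light chain, and VPREB3, which pairs with immunoglobulin chains in precursors) held 176 UMIs, or 122 CPM (105 to 141), and 57.0% of them had an Arntl UMI. The 10 other B-range barcodes at P14 held 1 Arntl UMI. In the control the same limit gave 26 barcodes, and all 17 Arntl UMIs there lay in 1 barcode. At 48 h there were 3 UMIs in 63 such barcodes, and at 96 h 0 in 44, which allows up to 19.7 CPM by the upper exact bound. B-range barcodes without the precursor genes were at 11.1 CPM in the control and 6.79, 18.8 and 20.3 at 24, 48 and 96 h, with intervals of 12.2 to 27.8 for the 48 h value and 12.6 to 31.0 for the last. The order of P14 was therefore not seen at 48 h or 96 h, where barcodes with the precursor genes had the lower value, with overlapping intervals.

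**Figure D5:**
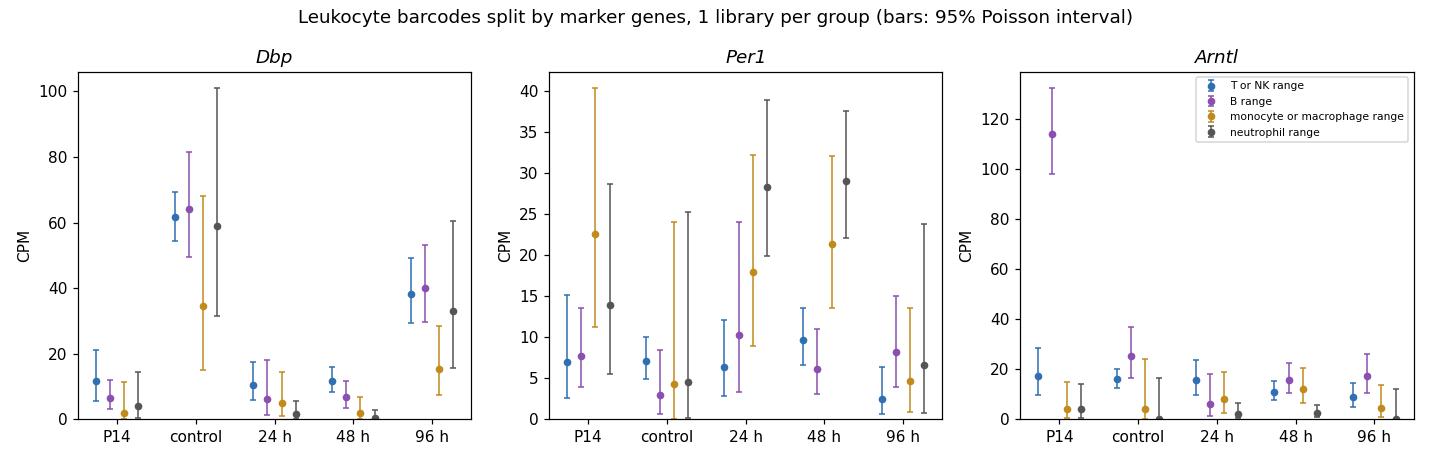
Dbp, Per1 and Arntl in leukocyte barcodes split into T or NK, B, monocyte or macrophage, and neutrophil ranges, in CPM on a linear axis from 0 for each library, with 95% Poisson intervals. The highest Arntl point is the B range at P14 (114 CPM), and the neutrophil range has its Per1 points at 28.2 and 29.1 CPM at 24 h and 48 h.

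Endothelial barcodes, with at least 3 UMIs of Stab2, Kdr, Ptprb and Clec4g and fewer than 3 of the leukocyte genes, numbered 27 at P14, 69 in the control, and 127, 41 and 77 at 24, 48 and 96 h. All 5 endothelial markers were detected in each library, and hepatocyte markers summed to 1814, 11273, 3471, 1693 and 17297 CPM. B cell markers were at 0 in all 5 libraries, T or NK markers summed to at most 5.51 CPM and monocyte or macrophage markers to at most 22.0. Neutrophil markers were at 11.6, 0, 125, 111 and 12.0 CPM from P14 to 96 h and erythroid markers at 11.6, 419, 326, 437 and 192. The plasmacytoid dendritic list summed to 709 to 815 CPM, nearly all of it from Bst2. Siglech was at 0 in all 5 libraries and Ccr9 in 4 of them, while Bst2 was also at 106 to 250 CPM in hepatocyte barcodes. This sum therefore does not show plasmacytoid cells. The part of other cell types in the endothelial values was not tested. Dbp was at 86.7 CPM at P14, 187 in the control, and 206, 138 and 164 at 24, 48 and 96 h, from 15, 34, 79, 31 and 41 UMIs. At 24 h these UMIs lay in 43 barcodes with at most 6 in any one, and at 48 h in 13 barcodes with at most 9.

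Endothelial Dbp was therefore not low at 24 h or 48 h, in the same libraries in which hepatocyte Dbp was. The endothelial ratio to the control was 0.14 (−0.46 to 0.76) at 24 h and −0.44 (−1.19 to 0.31) at 48 h, and these intervals do not meet those of hepatocytes. Nr1d1 was at 28.9, 149, 167, 111 and 92.1 CPM, with ratios of 0.17 (−0.50 to 0.87) at 24 h and −0.42 (−1.26 to 0.42) at 48 h. At 48 h the intervals for Nr1d1 in endothelial barcodes and in hepatocytes (−2.10 to −1.81) also do not meet. Intervals also did not meet for Tef at 48 h (−2.28 to 0.68 in endothelial barcodes) and Per3 at 48 h (−2.33 to 0.92). The Per3 ratio rests on 7 UMIs in 4 barcodes at 48 h and 9 UMIs in 5 barcodes in the control. In each library up to 3 of these lay in 1 barcode, which the interval does not cover. For Tef the difference is not resolved, since free RNA would supply 69.8% of the control's 11 endothelial UMIs. The remaining 37.3 CPM had an interval of −24.5 to 135. Intervals met for Tef at 24 h (−1.98 to 0.55) and for Nr1d2 at 24 h (−1.21 to 0.48). They also met for Per3 at 24 h, at −2.66 (−6.50 to −0.98) in endothelial barcodes, from 2 and 9 UMIs, and −2.48 in hepatocytes. For Nr1d2 at 48 h the endothelial ratio was −0.79, and its interval (−1.85 to 0.23) met that of hepatocytes.

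Free RNA would supply 1.88% of the endothelial Dbp UMIs at 24 h and 0.46% at 48 h, but 52.2% in the control and 44.9% at 96 h. After its subtraction Dbp was at 93.6, 182, 270, 153 and 179 CPM from P14 to 96 h. In the control, free RNA would supply 29.1% of the endothelial Nr1d1 UMIs, 37.7% of those of Nr1d2 and 10.4% of those of Per3. Arntl had between 2 and 4 UMIs per library in endothelial barcodes, so its level there was not resolved at this depth. At P14 the 5 Nr1d1 UMIs gave a ratio of −2.36 (−4.10 to −0.97), the direction seen in P14 hepatocytes.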

How the data were processed

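The authors deposited, for each library, a sparse matrix that holds raw UMI counts, not normalized, for all barcodes, empty droplets included. The software version is 3.0.2 per the file headers. The submitters' processing notes name mm10, bcl2fastq 2.17.1.14, Cell Ranger and Seurat 3.1 without saying what each did, and other filters are not given in the sources used here.

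Counts were summed per library and cell set and scaled to 1000000 UMIs (CPM), leaving the 13 mitochondrial genes out of the total. Ratios have no pseudocount and a floor of 3 counts. A gene was compared at 5 CPM or more in either library and counted as lower or higher past 2-fold. No test was run, because each group is 1 library. The intervals are exact Poisson (levels) and exact binomial (ratios, shares). Summed UMIs ranged from 13316829 to 64576753 in hepatocytes, 3501724 to 9382167 in leukocytes and 173109 to 383151 in endothelial barcodes. Free RNA was the profile of barcode ranks 20001 to 60000, which held 290 to 1328 UMIs per droplet. Doublets were not called; an alternative leaves out mixed and deepest barcodes.

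The members and the gene lists were chosen with earlier results of these data known. Named are the 10 members, all core loop genes, up to 3 genes of each of the other lists with the largest ratios, and the 5 genes nearest to Dbp and to Arntl. Some genes of the lists are not reported here and were left out of the list counts and medians. The counting was checked on simulated data. Tools were numpy 2.4.6, scipy 1.17.1 and pandas 2.3.3, with edgeR 4.0.16 (TMM) and DESeq2 1.42.0 (size factors) used for scaling alternatives only. The window of 250 bases before to 50 after a start comes from RefSeq (GRCm38.p6).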

Additional observations from a re-analysis of the deposited data

Results flagged for a closer look

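For Arntl and Clock the ratio to the adult control had opposite signs in hepatocytes and leukocytes at all 3 times after PHx. Arntl in hepatocytes was at 1.52, 2.03 and 0.18 (log2) at 24, 48 and 96 h, and in leukocytes at −0.92, −0.69 and −0.73. Clock in hepatocytes was at 0.29, 0.26 and 0.12, and in leukocytes at −0.56, −0.40 and −0.66. The difference between the cell sets was not tested, since each value comes from 1 library and both cell sets share it. The hepatocyte intervals at 96 h include 0 for both genes. In the control 17 of the 100 leukocyte Arntl UMIs lay in 1 barcode, which the counting intervals do not cover. The neutrophil markers of the leukocytes moved between the libraries. Without neutrophil-range barcodes the leukocyte ratios were −0.58, −0.47 and −0.67 for Arntl and −0.30, −0.13 and −0.63 for Clock, where the Clock intervals at 24 h (−0.72 to 0.10) and 48 h (−0.43 to 0.17) held 0. In barcodes with under 10% mitochondrial UMIs and the other hepatocyte limits, from which leukocytes were not left out, Clock was at −0.59, −0.45 and −0.61. Arntl was at −0.22 at 24 h and −1.22 at 96 h there, and all these intervals held 0. All genes had medians of −0.73, −0.65 and −0.48 in those barcodes, so a sign there does not show a direction for these genes. Only the Arntl interval at 48 h (−0.25 to 2.87) left out the median of all genes, and it lay above it.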

How the results depend on the processing

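No paired analysis was possible because each group is 1 library. Dbp in hepatocytes stayed past 2-fold below the control at 24 h (−4.94 to −3.09), 48 h (−6.16 to −3.62) and P14 (−3.75 to −2.81) in all 15 alternative settings, as in the main one. Values are said to keep to the main one when a count is within 1.5 times it and a ratio or phase relation is within its 95% interval, which is wider where counts are few. In hepatocytes 113 counts, 30 phase relations and 495 single-gene ratios kept to the main value, 7, 6 and 104 moved, and 1 ratio past 2-fold turned its sign. In leukocytes 85 counts and 451 ratios kept to it, 19 and 66 moved, and 3 ratios past 2-fold turned their sign.

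Under 10% mitochondrial UMIs, the phase relation to the control became −2.87 at 24 h (from −2.24), −3.65 at 48 h (from −3.13), −0.043 at 96 h (from −0.33) and −1.77 at P14 (from −1.65), 0 members were higher at 24 h, 5 were lower at 96 h, and Arntl at 24 h turned to −0.22, where the median of all genes was −0.73. Without barcodes that had at least 3 mitosis genes before thinning, which left 855 at 24 h, the phase relation was −2.09 there. Thinning gave a phase relation of −1.84 at P14, 1 member higher at P14 and 1 lower at 96 h. A pseudocount of 10 CPM left 0 members higher at 24 h, 48 h and P14. The cause was not tested, except that thinning leaves fewer counts and a pseudocount shrinks ratios of low genes.

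In leukocytes the members higher at 24 h went from 2 to 0 without neutrophil-range barcodes (added after seeing the data), thinned or with a pseudocount of 10 CPM, and to 1 with a pseudocount of 1 CPM. The members higher at 48 h went from 1 to 0 thinned or with 10 CPM. The members lower at 24 h went from 4 to 2 with 10 CPM or with scaled free RNA subtracted (also added). At 96 h 1 member was lower, in place of 0, with 5 marker UMIs, without barcodes of 1% or more hepatocyte RNA, at 2000 UMIs, with all UMIs in the denominator or with scaled free RNA subtracted, and 2 when thinned. At P14 2 were higher thinned or with free RNA subtracted either way, and 2 lower with either subtraction. Per2 at 24 h turned to −0.98 without neutrophil-range barcodes, Per1 at 24 h to −0.093 thinned, and Nr1d1 at P14 to 0.67 with scaled free RNA subtracted.

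Depth limits the endothelial values most, where 173109 to 383151 UMIs stand behind a level, and Arntl in the control and 96 h hepatocytes, with 57 and 65 UMIs.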
